A study of Mus musculus with 6 samples.

Results

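The 10 cell surface molecules that are used to find haematopoietic stem and progenitor cells were followed in CD31-positive cells of the mouse embryo. Their genes are Cd34, Procr, Cd93, Adgrg1, Cd48, Slamf1, Cd27, Cd44, Spn and Emcn. They were chosen by name, and each was read from the probe set that the platform annotation gives to that gene alone. All 10 were measured, with 1 probe set each, among 19937 genes in all. The cells were from CD1 embryos at E11.5, from the region around the aorta, gonads and mesonephros (AGM), dispersed with collagenase and sorted as positive for CD31 and negative for both CD45 and Ter119. Surface c-kit then divided them into 3 c-kit-positive and 3 c-kit-negative samples, all labelled as time T0, and each sample was hybridised to 1 array. Replicates are labelled as biological, with no word on how many embryos went into one, so p-values measure the spread between these samples.

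Blood stem cells arise in this region from endothelium of the dorsal aorta that buds into the vessel lumen, and their surface carries endothelial molecules before it carries most leukocyte molecules. CD34 and endomucin (Emcn) are sialomucins of vessels and early progenitors, the protein C receptor (Procr, EPCR or CD201) and CD93 (AA4.1) mark stem cells of the fetal liver as well as endothelium, and GPR56 (Adgrg1) is an adhesion G protein-coupled receptor of stem cells. CD150 (Slamf1) and CD48 are the pair of the SLAM family by which adult stem cells are told from later progenitors. CD27 is a receptor of the TNF receptor family on lymphocytes and progenitors, CD44 binds hyaluronan, and CD43 (Spn) is a leukocyte sialomucin that appears on emerging blood cells of this region ahead of CD45.

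The 10 molecules split into opposite directions. Emcn, Cd93, Cd34 and Procr were lower in c-kit-positive cells, and Adgrg1, Cd27, Cd48 and Spn were higher. Slamf1 and Cd44 did not pass the test. Values are log2 intensities, so a difference of 1 is a 2-fold change. In all, 8 of 10 passed an adjusted p of 0.05 (limma, Benjamini-Hochberg over all genes), where 7.41% of all genes passed, 2.71% as higher and 4.7% as lower. The same 8 had the values of the populations wholly apart, as 26.8% of all genes did. The median difference of the 10 was -0.04 and that of all genes 0.07.

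**Figure D1:**
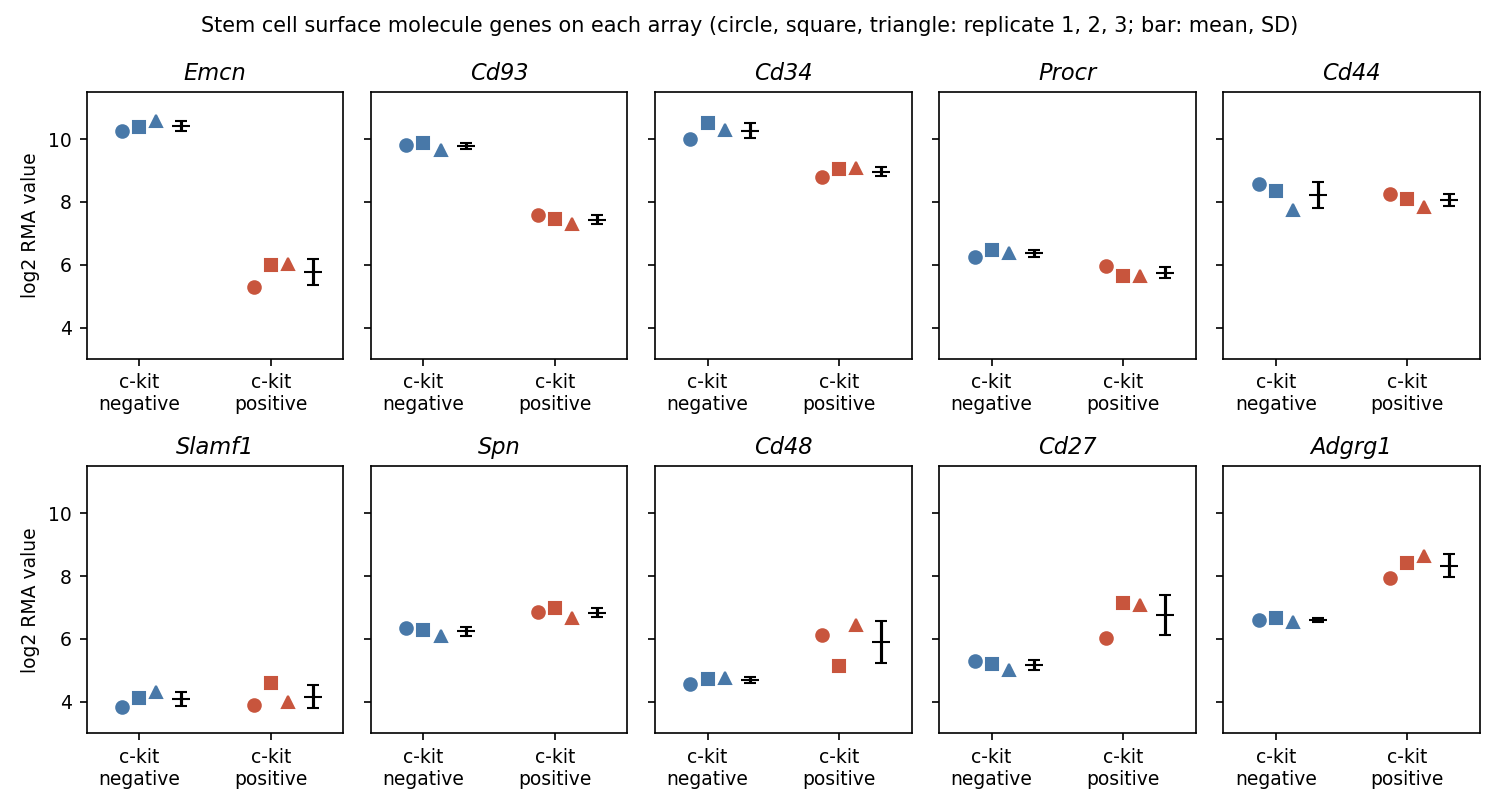
Log2 RMA value of each of the 10 genes on every array, c-kit-negative in blue and c-kit-positive in red, with the replicate given by the symbol and the mean and SD as black bars. The populations lie apart for 8 genes and overlap for Slamf1 and Cd44.

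The 3 sialomucins among them, Emcn, Cd34 and Spn, did not move alike, and their promoters are shown for that reason. Each sequence is the 250 bases before the RefSeq start on the gene's own strand (build GRCm38.p6), with capitals on matches to CAGGAA, a form of the ETS factor site, on either strand.
Emcn, chr3:137340828-137341077, plus strand: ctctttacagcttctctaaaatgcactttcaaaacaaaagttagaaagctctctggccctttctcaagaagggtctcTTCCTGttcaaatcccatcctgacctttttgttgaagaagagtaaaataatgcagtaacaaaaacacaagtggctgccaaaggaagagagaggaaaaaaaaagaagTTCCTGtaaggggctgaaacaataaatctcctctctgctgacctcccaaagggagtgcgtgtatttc
Cd34, chr1:194938571-194938820, plus strand: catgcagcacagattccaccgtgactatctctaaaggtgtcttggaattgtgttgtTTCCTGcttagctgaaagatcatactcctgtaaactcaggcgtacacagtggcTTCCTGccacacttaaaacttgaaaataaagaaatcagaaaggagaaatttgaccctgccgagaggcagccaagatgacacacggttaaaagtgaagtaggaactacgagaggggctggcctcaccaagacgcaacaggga
Spn, chr7:127137824-127138073, minus strand: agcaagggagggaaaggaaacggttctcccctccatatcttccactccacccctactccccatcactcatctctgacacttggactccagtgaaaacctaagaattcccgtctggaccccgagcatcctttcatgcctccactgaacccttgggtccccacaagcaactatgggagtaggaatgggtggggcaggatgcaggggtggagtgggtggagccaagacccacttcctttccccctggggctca
Emcn and Cd34, which fell, held 2 matches each, and Spn, which rose, held none. RefSeq promoters were matched for 9 of the 10 genes, in 10 windows, and 6 genes held CAGGAA in a window: Adgrg1, Cd34, Cd44, Cd48, Emcn and Slamf1. Of all 32841 promoter windows of this length, 25.7% held it. Genes of both directions and both genes that did not pass were thus among the 6. The other motifs were likewise searched on both strands. The GATA factor form AGATAA, which 9.99% of all windows held, was found in Cd44. The RUNX factor form TGTGGT, held by 14%, was found in Cd48, and the E-box form CAGCTG, held by 13%, in Procr. A further ETS form, CCGGAA, held by 12%, was found in none of the 10 windows. Emcn, Cd34 and Spn held none of these other forms, so no match in them overlaps another. A match is only a run of letters in these windows. Forms of the ETS site other than CAGGAA and CCGGAA were not searched, in Spn or elsewhere.

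Emcn, the sialomucin of venous and capillary endothelium, differed most. It stood at 10.27, 10.40 and 10.58 in the c-kit-negative replicates (always given here in the order 1, 2, 3) and at 5.28, 6.0 and 6.01 in the c-kit-positive ones. The lowest c-kit-negative array was 4.26 above the highest c-kit-positive array. The means were 10.42 ± 0.16 and 5.76 ± 0.42 (SD, n = 3 each), and limma gave the difference as -4.65 ± 0.22 (SE) with an adjusted p of 1.77e-05.

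Cd93, a C-type lectin of endothelium and of fetal liver stem cells, was at 9.81, 9.87 and 9.66 in c-kit-negative cells. In c-kit-positive cells it was at 7.57, 7.45 and 7.29, so the values of each population lay within 0.3 of each other and the populations 2.09 apart. The difference was -2.34 ± 0.14 (SE, adjusted p = 5.27e-05, limma). Cd34, the sialomucin by which progenitors are most often isolated, was at 10.01, 10.51 and 10.29 against 8.79, 9.03 and 9.08 in c-kit-positive cells. It thus fell by 1.30 ± 0.17 on the log2 scale (SE, adjusted p = 0.00266, limma). Its mean in c-kit-positive cells was 8.97 ± 0.15 (SD, n = 3).

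Procr, whose product binds protein C on endothelium, showed a small fall. It was at 6.24, 6.46 and 6.38 in c-kit-negative and 5.96, 5.65 and 5.65 in c-kit-positive cells. The gap between the populations was 0.29, and the difference was -0.61 ± 0.15 (SE, 1.53-fold lower, adjusted p = 0.0430, limma). This call was lost when any one c-kit-negative array, or c-kit-positive replicate 2 or 3, was left out (adjusted p 0.0788 to 0.127, limma). It was kept without c-kit-positive replicate 1 (0.0412). It was lost as well after quantile normalization (0.0519).

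On the same arrays all 15 measured pan-endothelial markers other than Emcn were lower, by a median of -2.31, and their mean level was 8.61 to 8.69 in c-kit-negative and 5.96 to 6.22 in c-kit-positive cells. In sorted pools, fewer cells of a type and less RNA per cell cannot be told apart. The part of the endothelial markers in the 4 falls was not tested. Pecam1, the gene of the CD31 that both populations were sorted for, was at 10.02 ± 0.02 in c-kit-negative and 9.13 ± 0.16 in c-kit-positive cells (SD, n = 3 each). Platelet and mesenchymal markers were also lower in part, 3 of 8 and 7 of 13. The platelet list's mean level was 6.84 to 7.98 in c-kit-negative and 5.98 to 6.46 in c-kit-positive cells, and that of the mesenchymal list 6.25 to 6.51 and 5.19 to 5.29. Erythroid markers divided, with 3 of 9 lower, the embryonic globins Hbb-y (15.7-fold), Hba-x (14.2-fold) and Hbb-bh1 (5.49-fold), and 2 higher, Car1 (4.32-fold) and Tfrc (1.69-fold). Their mean level was 6.77 to 7.51 in c-kit-negative and 6.37 to 6.56 in c-kit-positive cells. Of the macrophage markers 3 of 15 were lower, with a mean level of 6.18 to 7.24 and 5.77 to 5.90. The part of these 4 lists in the falls was not tested either.

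Adgrg1, the adhesion receptor GPR56, rose most among the 10. It was at 6.59, 6.66 and 6.54 in c-kit-negative cells and at 7.94, 8.43 and 8.64 in c-kit-positive ones. All c-kit-positive arrays were at least 1.28 above every c-kit-negative array, and the difference was 1.74 ± 0.19 (SE, adjusted p = 0.00109, limma). The c-kit-negative values spread little (SD 0.06) and the c-kit-positive values more (SD 0.36).

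Cd27, the receptor of CD70 on lymphocytes and progenitors, was at 5.31, 5.19 and 5.00 in c-kit-negative cells. In c-kit-positive cells it was at 6.03, 7.16 and 7.09, with replicate 1 about 1 unit below the other two. The difference was 1.59 ± 0.29 (SE, 3.02-fold, adjusted p = 0.0131, limma). It was 1.96 without c-kit-positive replicate 1. Without c-kit-negative replicate 3 it was 1.51 and did not pass, with an adjusted p of 0.0507 (limma), just above the threshold.

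Cd48, the SLAM family member carried by progenitors and most leukocytes, was at 4.58, 4.74 and 4.75 in c-kit-negative cells and at 6.14, 5.15 and 6.44 in c-kit-positive cells. Replicate 2 of the c-kit-positive cells thus lay closer to the c-kit-negative arrays than to its own group. The difference was 1.22 ± 0.30 (SE, 2.33-fold, adjusted p = 0.0449, limma). Without that replicate it was 1.60 with an adjusted p of 0.00207 (limma), and with any one of the other 5 arrays left out it did not pass (0.105 to 0.138).

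Spn, the gene of CD43, rose least. It was at 6.36, 6.28 and 6.08 in c-kit-negative and 6.85, 6.98 and 6.68 in c-kit-positive cells, with a gap of 0.32. The difference was 0.60 ± 0.15 (SE, 1.51-fold, adjusted p = 0.0472, limma). Whichever single array was left out, it no longer passed (adjusted p 0.0605 to 0.139, limma), and the difference was then 0.52 to 0.68.

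The mean levels of leukocyte and lymphoid markers overlapped between the populations on the same arrays. Pan-leukocyte markers had 2 of 14 higher, Dock2 (1.87-fold) and Rac2 (1.70-fold), and none lower, where 2.71% of all genes were higher. Of the 14 differences 6 were above 0 and 8 below. The list's mean level was 7.92 to 8.38 in c-kit-negative and 8.07 to 8.16 in c-kit-positive cells. Lymphoid markers had 1 of 9 higher (Cd3g) and 1 lower (Il7r), with a mean level of 5.11 to 5.45 and 5.29 to 5.54. Ptprc, which encodes CD45, was at 9.40, 8.66 and 8.21 in c-kit-negative and 8.37, 8.60 and 8.59 in c-kit-positive cells, so the populations overlapped and its difference of -0.24 ± 0.27 (SE) did not pass (adjusted p = 0.689, limma). Granulocyte and mast cell markers had 1 of 10 higher and 2 lower, with mean levels that overlapped (6.15 to 6.62 and 6.09 to 6.51). Of these 10 differences 7 were above 0 and 3 below, and they ran from -3.23 to 1.64. Of the primordial germ cell markers 15 of 18 were higher and none lower, with a mean level of 6.41 to 6.51 in c-kit-negative and 7.66 to 7.83 in c-kit-positive cells. Mesonephric and gonadal epithelium markers had 2 of 11 higher and 1 lower. Their mean level was 5.901 to 6.168 in c-kit-negative and 6.173 to 6.385 in c-kit-positive cells. The part of these lists in the 4 rises was not tested. The values hold no detection calls, so no marker was called absent.

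**Figure D2:**
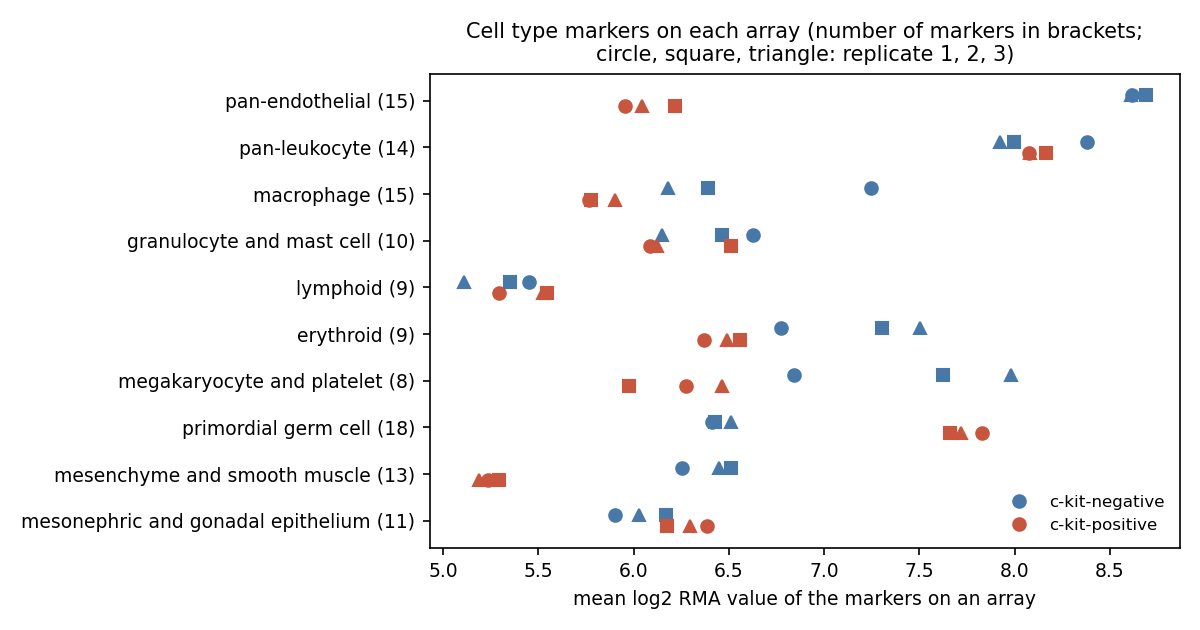
Mean log2 RMA value of each cell type marker list on every array, c-kit-negative in blue and c-kit-positive in red, with the replicate given by the symbol. The pan-endothelial means lie at 8.61 to 8.69 against 5.96 to 6.22, the germ cell means in the opposite order, and the pan-leukocyte means overlap.

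Slamf1, which encodes the adult stem cell marker CD150, was at 3.84, 4.11 and 4.30 in c-kit-negative and 3.90, 4.58 and 4.01 in c-kit-positive cells. The ranges overlapped, and the difference was 0.08 with a 95% interval of -0.40 to 0.56 (adjusted p = 0.872, limma). Its mean over the arrays lay among the dimmest 30 percent of genes, where array background can compress differences. Its sign turned without c-kit-negative replicate 1 (-0.04), without c-kit-positive replicate 2 (-0.13) and after quantile normalization (-0.0011). Slamf1 and Cd48 lie close together in the SLAM cluster of chromosome 1, with 1 coding gene listed between them. Cd44, the hyaluronan receptor, was at 8.57, 8.34 and 7.76 in c-kit-negative and 8.24, 8.09 and 7.84 in c-kit-positive cells. The c-kit-negative values enclosed all the c-kit-positive ones, and the difference was -0.16 with a 95% interval of -0.67 to 0.34 (adjusted p = 0.736, limma). Without c-kit-negative replicate 1 it was 0.01. In that array the macrophage markers had a mean level of 7.24, against 6.39 and 6.18 in replicates 2 and 3, and Ptprc was also highest there (9.40 against 8.66 and 8.21), although the gate selected against its product CD45. Their part in the Cd44 values was not tested.

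**Figure D3:**
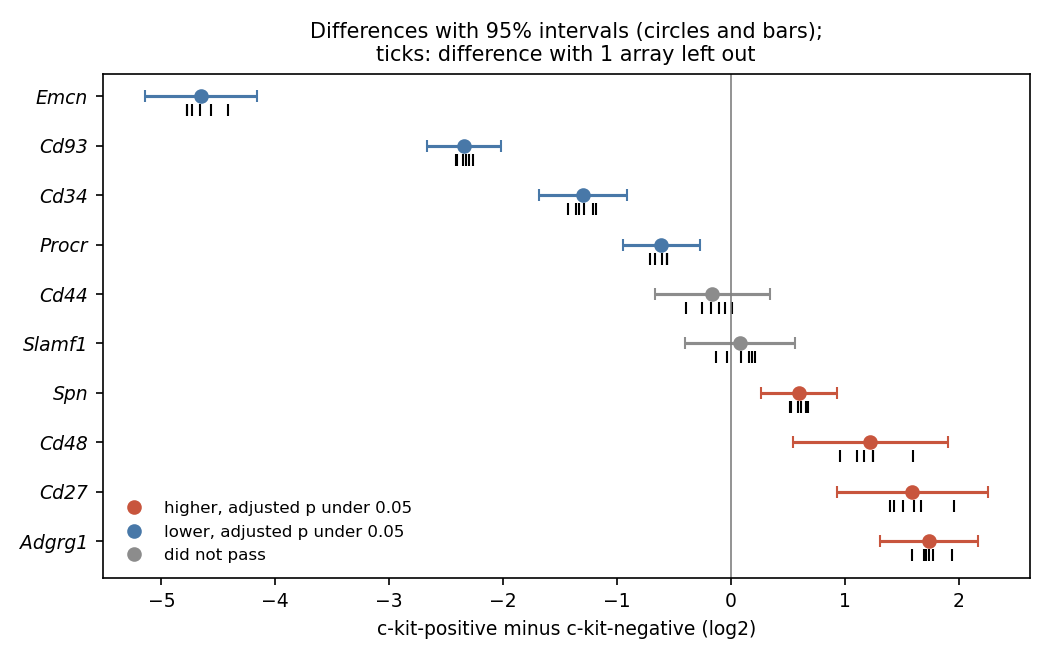
Difference between c-kit-positive and c-kit-negative cells (log2) for the 10 genes, as circles with 95% intervals from limma, and as black ticks with 1 array left out. Emcn, Cd93, Cd34 and Procr lie below 0 and Spn, Cd48, Cd27 and Adgrg1 above it, while the intervals of Cd44 and Slamf1 span 0.

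Families and partners of the 10 molecules were then read from the same test. They comprised 108 further measured genes, of which 29 were lower, 4 higher and 75 did not pass, with a median difference of -0.26. Over all genes 4.7% were lower and 2.71% higher, so few rises would be met in any short list. Of the 108, 3 (Esam, Clec14a and Plvap) also stand in the pan-endothelial list. Further genes stand in other marker lists as well: Itga2b (platelet), Il7r and Cd2 (lymphoid), Cd68 and Adgre1 (macrophage) and Col3a1 (mesenchymal).

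Of the other sialomucins 2 of 7 fell and none rose (median -0.06). Podxl, the podocalyxin of endothelium and early blood progenitors and a relative of CD34, fell by 1.24 ± 0.19, and Madcam1, an adhesion molecule for lymphocyte homing, fell by 1.32 ± 0.33 (log2, SE, adjusted p = 0.00574 and 0.0482, limma). The call of Madcam1 was kept with 1 of the 6 arrays left out, c-kit-positive replicate 1, and lost without each of the other 5. Cd93 fell with most genes of its list of relatives and partners: 4 of the 5 others were lower. Clec14a, a lectin of the same group, fell by 2.78 ± 0.15, and Mmrn2, the matrix ligand that CD93 and CLEC14A bind, fell by 2.70 ± 0.16 (log2, SE, adjusted p = 3.55e-05 and 4.42e-05, limma). Mmrn1 and Cd248 (endosialin) were 3.08-fold and 2.41-fold lower. The remaining member, the thrombomodulin gene Thbd, had a difference of -0.86 (adjusted p = 0.0667, limma).

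In the protein C system 4 of the 8 genes beside Procr fell and none rose (median -0.57). S1pr1, the sphingosine-1-phosphate receptor through which activated protein C protects endothelium, was 3.21-fold lower, and Pros1, the protein S cofactor, 2.46-fold lower. The tissue factor inhibitor Tfpi and the thrombin receptor F2r were 1.52-fold and 1.46-fold lower (adjusted p = 0.0381 and 0.0433, limma). Both calls were lost whichever single array was left out, and also after median centring of the arrays.

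Adgrg1 was the one adhesion G protein-coupled receptor of the 15 measured to rise, and 6 of the other 14 fell (median of the 14, -0.75). The other 8 did not pass, among them Adgrl4 (difference 0.05, adjusted p = 0.908, limma). Of the 14 differences 10 were below 0 and 4 above. Adgrf5, a receptor of lung and vessel endothelium, was 13.6-fold lower, Adgre5 (CD97) 3.09-fold, Adgra2, a coreceptor for Wnt signals in brain vessels, 2.62-fold and Adgrl3 2.53-fold. Adgrl2 was 5.56-fold lower on its brightest probe set, and its 8 probe sets differed by -2.85 to -0.61. Adgra3 fell by 0.84 ± 0.17 (log2, SE, adjusted p = 0.0190, limma) but lost its call when c-kit-negative replicate 2 or 3, or c-kit-positive replicate 1 or 2, was left out (0.0615 to 0.0668). Among 13 genes of partners of this receptor none rose and 4 fell: Plvap, a diaphragm protein of endothelium (3.38-fold), the tetraspanin Cd81, which binds GPR56 (2.16-fold), the G protein subunit Gna11 (2.10-fold) and the exchange factor gene Arhgef12 (1.93-fold).

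Of 14 partners of CD44 4 fell and none rose (median -0.55). They were the matrix proteoglycan gene Vcan, whose product binds hyaluronan (11.6-fold lower), the protease gene Mmp14 (6.34-fold), the cytoskeletal linker gene Msn, or moesin (2.20-fold), and Lyve1, the hyaluronan receptor of lymphatic endothelium and macrophages (1.83-fold). Hmmr, another hyaluronan receptor, differed by 0.32 (adjusted p = 0.383, limma). Cd44 thus did not pass while 4 genes of its list fell, and the difference between them was not tested.

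Among 20 further genes of the CD27 and TNF receptor list 1 rose, Tnfrsf10b, a receptor of the death ligand TRAIL, by 1.67-fold (adjusted p = 0.0272, limma). Its call was lost when c-kit-negative replicate 1 or 3, or c-kit-positive replicate 1 or 2, was left out (0.0733 to 0.0909). Cd70, the ligand of CD27, was at 4.48 ± 0.17 in c-kit-negative and 4.69 ± 0.19 in c-kit-positive cells (SD, n = 3 each, adjusted p = 0.496, limma). Siva1, whose product binds the tail of CD27, differed by 0.66 and did not pass (adjusted p = 0.0615, limma). Apart from Cd48, none of the 11 other genes of the SLAM list passed limma's threshold, and 0 had an unadjusted p under 0.05. The smallest p among them was that of Cd2, a CD48 binding partner on T cells, at 5.15 ± 0.25 in c-kit-negative and 5.61 ± 0.45 in c-kit-positive cells (SD, n = 3 each).

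**Figure D4:**
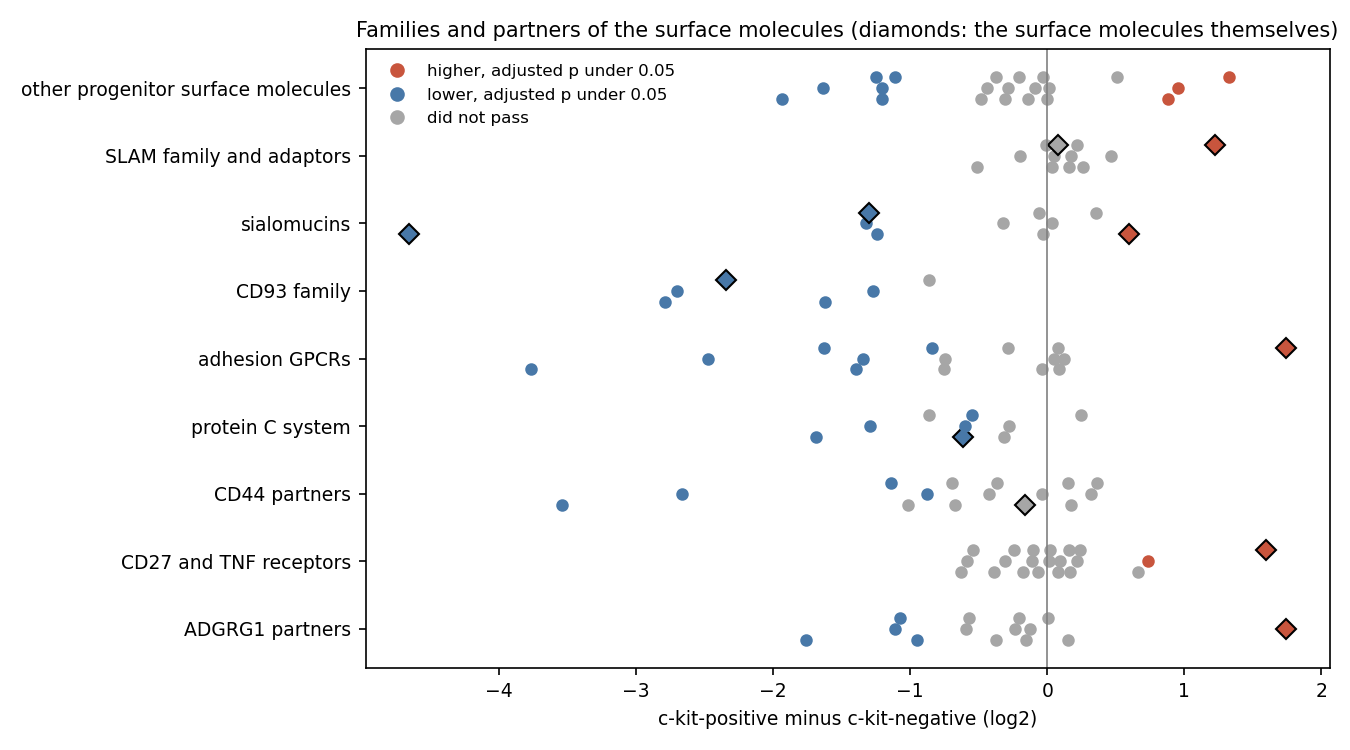
Difference between c-kit-positive and c-kit-negative cells (log2) for each measured gene of 9 lists, red where higher and blue where lower at an adjusted p under 0.05, grey otherwise, with the surface molecules themselves as diamonds. Adgrg1 stands at 1.74 with no other red point in its row, and Cd93 lies among genes that were lower.

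A last list held 21 other surface molecules used to sort progenitors, and 3 rose and 6 fell (median -0.28). Kit rose (1.33 ± 0.12, SE), but the cells were sorted on its protein, so this is no independent result. Its RNA was at 8.22 ± 0.04 in c-kit-negative and 9.55 ± 0.03 in c-kit-positive cells (SD, n = 3 each). Flt3, a cytokine receptor of multipotent progenitors, rose by 0.88 ± 0.16 (log2, SE, adjusted p = 0.0128, limma). Falls were those of Esam, an adhesion molecule of endothelium and stem cells (3.83-fold), the laminin receptor subunit Itga6 (3.10-fold), Prom1, or CD133 (2.30-fold), and Cd81. The other 3 that passed were Itga4 (1.93-fold higher, adjusted p = 0.0492, limma), Alcam (2.37-fold lower, 0.0308) and Il7r (2.31-fold lower, 0.0491), named after their values were seen. With 1 array left out 4 to 5 genes of the list fell and 2 to 3 rose. Itga4 passed in 1 of these 6 fits, the one without c-kit-positive replicate 1, Alcam in 2, without replicate 2 of either population, and Il7r in 2, without c-kit-negative replicate 1 or 3. After median centring neither Itga4 nor Il7r passed (0.0531 and 0.0535), nor did either with every probe set tested (0.0549 and 0.0555), and Il7r also missed with array weights (0.0516). Itga2b, which encodes CD41, an early marker of embryonic blood cells, was at 6.19 ± 0.30 in c-kit-negative and 5.91 ± 0.13 in c-kit-positive cells (SD, n = 3 each, adjusted p = 0.419, limma). Cd47, the signal against phagocytosis, was at 10.74 ± 0.04 in c-kit-negative and 10.71 ± 0.12 in c-kit-positive cells (SD, n = 3 each).

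For each of the 8 genes that passed, the 2 genes of nearest profile were sought, by the root mean square distance between log2 values centred on each gene's mean over the 6 arrays. Emcn was nearest to the imprinted gene Mest (0.132) and to Cdh5, or VE-cadherin (0.223). Cd93 was nearest to the arterial ephrin gene Efnb2 (0.0919) and the microtubule protein gene Map1b (0.125). Cd34 was nearest to Igf2r, a receptor that clears insulin-like growth factor (0.0748), and Fam122b (0.106), and Procr to Lrrc49 (0.0510) and Nprl2 (0.0544). Nprl2 did not itself pass (adjusted p = 0.0565, limma). Of the genes that rose, Adgrg1 was nearest to H2bc1, a histone gene of the germ line (0.134), and Tdrd12, a Tudor domain gene of piRNA production (0.199). Cd27 was nearest to Adgrg1 itself (0.215) and to Icam4, an adhesion molecule of red cell precursors (0.223). Cd48 was nearest to Nlrp4e (0.136) and Usp26 (0.163), and Spn to Ankzf1 (0.0582) and Rexo5 (0.0653). These distances are a description over 6 arrays, and the difference between the populations makes up most of each profile.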

How the data were processed

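Total RNA of 6 sorted samples, 3 of each population, was amplified from 5 ng with a whole-transcript kit and labelled with biotin, per the labels' protocols. The deposited log2 values were produced by the authors through RMA (named in the submitters' processing notes), which subtracts background, equalises arrays and summarises probes. For its version and settings, nothing is given in the sources used here. Amplification and array background can compress differences of dim genes. The number of arrays limits the precision. Values ran from 1.22 to 13.7, with array medians of 5.42 to 5.52.

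Of 34760 probe sets, 21640 had 1 gene symbol, 1321 several and 11799 were not listed and stayed unnamed here. For 954 of the 19937 genes the brightest of several probe sets was used. The test was limma's moderated linear model (version 3.58.1, R 4.3.3), two-sided, unfiltered and unblocked, and p-values were adjusted after Benjamini-Hochberg across all genes, with a threshold of 0.05. The script was tested on simulated data. An exact permutation test of 3 against 3 cannot go below 0.1, so none was run. Gene models were named from RefSeq (GRCm38.p6). Promoter sequences are RefSeq's. List genes that lacked such a probe set were not analysed here.

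The 10 genes and all lists were chosen with earlier results of these data known. The genes named were all 10, from each related list the genes that passed (at most 6, by smallest p) or else the 1 with the smallest p, the sort gate genes, and the 2 nearest profiles of each gene that passed, gene models known only by a number left out. Further genes named as values, as the ligand or partner of one of the 10 or as well-known markers, were chosen after their values were seen. Alternatives were other scalings, filters on dim genes, other uses of probe sets, variance priors, weights per array, a replicate block, a threshold of 0.01 and leaving out each array.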

Additional observations from a re-analysis of the deposited data

How the results depend on the processing

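The falls of Emcn, Cd93 and Cd34 and the rise of Adgrg1 kept their direction and passed under all 16 alternatives run for each. For the 10 genes together, 123 of 157 alternatives left the call as it was, 30 lost it and 4 turned the sign of a gene that had not passed. Of the turned signs, Slamf1 was at -0.0011 after quantile normalization and ran from -0.13 to 0.21 with 1 array left out, and Cd44 ran from -0.40 to 0.011. Ptprc, of the sort gate, ran from -0.51 to 0.087. Cd47, which had not passed either, was at 0.17 as the mean of its probe sets and ran from -0.075 to 0.034 with 1 array left out. The 4 rises among the 10 became 2 when every probe set was tested and 1 at an adjusted p of 0.01, and 1 to 3 with 1 array left out, while the 4 falls became 3 to 4. Over all genes, 131 rose and 499 fell at 0.01, and 276 to 369 rose and 670 to 745 fell with 1 array left out. Of the related genes 1 rose at 0.01 and 2 to 3 with 1 array left out. Apart from arrays left out and the stricter threshold, calls among the 10 were lost in limma as follows. After quantile normalization Procr (adjusted p = 0.0519) and Cd48 (0.0524) did not pass, with every probe set tested Cd48 (0.0506) and Spn (0.0503), with an intensity trend and robust prior Procr (0.0586) and Spn (0.0763), and with array weights Cd48 (0.0568). A stricter threshold calls fewer genes by construction. Leaving out an array also called fewer over all genes, but not every adjusted p grew. That of Cd48 was 0.00207 without c-kit-positive replicate 2, against 0.0449 with all arrays (limma). After median centring 896 genes fell and 578 rose. With the dimmest 30 percent of genes left out Slamf1 was not tested, and with the dimmest 50 percent neither Slamf1 nor Cd48.

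Arrays with the same replicate number showed almost no shared deviation (correlations of 0.00071, 0.024 and 0.059 across genes). The labels do not say whether the numbers pair the samples, and so few arrays cannot exclude it. With the replicate block 3 of the 10 genes rose and 3 fell, 476 and 879 over all genes, and Procr (adjusted p = 0.0887, limma) and Spn (0.0633) did not pass. Alcam (0.0642), Il7r (0.0625), Tfpi (0.0834) and F2r (0.0850) were lost there too.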
